A study of Mus musculus with 7 samples.

Results

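The major urinary protein (Mup) genes code for small secreted lipocalins, and 10 of them (Mup3, Mup5, Mup7, Mup10, Mup11, Mup12, Mup17, Mup20, Mup21 and Mup22) were measured in 3 WT and 4 TET1 KO livers. The genes were chosen by their symbols, with the differences between the genotypes in these libraries already known, from 49 symbols starting with Mup (22 genes and 27 pseudogenes) among 51426 genes. Their own differences are therefore descriptions: no p is given for them, and how many passed the threshold of the fit over all genes is counted but supports nothing. All mice were males whose strain the labels give as C57BL/6J, and all were fed a high-fat diet (HFD, 60% of calories from fat) for 16 weeks from 8 weeks of age. TET1 KO mice came from the whole-body deletion strain B6;129S4-Tet1tm1.1Jae/J, whose name holds 129S4 beside B6. Backcrossing to C57BL/6J is stated for other mouse lines of the study and not for this one. The part of genetic background in the values was not tested. Each library came from the liver of 1 mouse. TET1 is an enzyme that oxidises methylated cytosine in DNA. The question behind the comparison was which liver genes differ in mRNA level when TET1 is missing on an HFD.

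MUP proteins are made in hepatocytes, released into blood, filtered into urine, and carry small volatile pheromones in a barrel-shaped pocket. In mice the genes lie side by side on chromosome 4. Liver output is higher in males, where pulses of growth hormone, testosterone, thyroid hormone and glucocorticoids raise it. The family falls into near-identical central genes and more divergent peripheral genes. Mup20 codes for darcin, a male signal that attracts females, while Mup4 and Mup5 are known mainly from glands outside the liver.

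In GRCm38 (RefSeq, where all 10 symbols were matched), the 10 genes spanned 2.08 Mb of chromosome 4, from 60066469 to 62150841. Genes placed between Mup7 and Mup19, from 60066469 to 61782355, are called central here. They were 16 of the 22 Mup genes and took in Mup7, Mup10, Mup11, Mup12, Mup17 and Mup22. The other 6 are called peripheral and took in Mup3, Mup5, Mup20 and Mup21. Transcripts of 12 central genes matched by identifier in GENCODE M1 were 98.6% to 99.7% identical to each other, with a median of 99.0%. Between central and peripheral transcripts identity was 78.1% to 90.7%.

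Promoter sequence is shown because near-identical control regions sat in front of genes with unlike differences between the genotypes. RefSeq promoter windows, 250 bases before to 50 bases after the start, were at hand for 6 of the 10 genes, and the 250 bases before the start are printed 5′ to 3′ on the gene's strand, which is the minus strand in each case. Capitals mark the TATA-like core TATATAA and the longest run of A. The windows lie at chr4:61595833-61596082 for Mup17, chr4:60582156-60582405 for Mup10, chr4:62087318-62087567 for Mup3 and chr4:60070476-60070725 for Mup7.
Mup17: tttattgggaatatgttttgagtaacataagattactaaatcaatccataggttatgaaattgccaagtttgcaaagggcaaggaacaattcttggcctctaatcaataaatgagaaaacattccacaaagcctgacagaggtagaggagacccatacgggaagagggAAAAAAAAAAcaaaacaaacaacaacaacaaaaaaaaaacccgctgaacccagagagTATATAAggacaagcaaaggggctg
Mup10: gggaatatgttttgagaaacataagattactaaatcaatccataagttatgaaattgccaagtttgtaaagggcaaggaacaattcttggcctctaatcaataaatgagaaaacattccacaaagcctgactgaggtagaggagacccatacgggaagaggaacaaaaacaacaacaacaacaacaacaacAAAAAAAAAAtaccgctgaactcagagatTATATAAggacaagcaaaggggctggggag
Mup3: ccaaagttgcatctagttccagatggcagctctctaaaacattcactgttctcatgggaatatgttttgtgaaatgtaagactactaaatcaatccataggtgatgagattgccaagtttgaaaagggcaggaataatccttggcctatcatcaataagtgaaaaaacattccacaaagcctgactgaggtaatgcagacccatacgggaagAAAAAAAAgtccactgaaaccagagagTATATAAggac
Mup7: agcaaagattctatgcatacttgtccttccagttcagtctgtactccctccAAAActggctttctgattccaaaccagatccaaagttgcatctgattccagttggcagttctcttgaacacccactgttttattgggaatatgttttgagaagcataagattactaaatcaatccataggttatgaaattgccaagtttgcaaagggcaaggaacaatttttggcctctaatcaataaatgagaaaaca

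The Mup17 and Mup10 windows were 94.9% identical over 296 aligned columns, and Mup11 and Mup17 were 98.9% identical over 278. Mup3 and its neighbour Mup21 were 93.3% identical over 297 columns, while Mup3 and Mup10 were 76.5% identical over 281. The start used for the Mup7 window was the end of its gene span, at 60070475. That used for Mup10 lay inside its gene span, which ends at 60582276, with the window beginning at 60582156. The Mup7 window was thus placed further upstream and overlapped that of Mup10 over only 166 columns, at 95.2% identity. The core TATATAA, searched on both strands, was found in 13 of 14 Mup promoter windows and in 3.24% of 32851 windows of all genes. The window without it was that of Mup7, which was placed further upstream. The longest run of A before the start was 10 bases in Mup10 and Mup17, 9 in Mup11, 8 in Mup3 and 7 in Mup21. The letters TTCNNNGAA, which STAT factors are known to bind, were found in 0 of the 14 windows and in 8.30% of all windows. The letters AGAACA, found within steroid receptor sites, were present in 2 of the 14 windows (Mup3 and Mup21) and in 19.0% of all windows. These matches describe the letters in the windows and do not show that a factor bound or was absent.

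Libraries held 15005277 to 22746138 counts, and 14754 genes passed the filter on low counts. In edgeR's quasi-likelihood test with Benjamini-Hochberg adjustment over these genes, 129 were called higher and 169 lower in TET1 KO livers at an adjusted p under 0.05. Tet1 had 1 to 4 counts in every library, near the floor of 3 counts in both genotypes, so that its mRNA could not check the labels. On the first principal component of log2 CPM (CPM is the usual count scaled to a common library size, corrected here by edgeR's TMM factors), which held 48.7% of the variance, the livers of the genotypes did not overlap, and TET1 KO replicate 4 lay nearest to the WT livers at 1.60 against -56.9 to -19.4. Markers of hepatocytes summed to 84800 to 98800 CPM in WT and 83900 to 98800 CPM in TET1 KO livers over 9 of 10 markers, and the remaining one was not analysed here. None was called, beside 2.02% of all tested genes, although Apoa1 was higher in every TET1 KO liver. In bulk liver, fewer cells of a type and less RNA per cell cannot be told apart.

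Mup reads made up a larger share of the library in every TET1 KO liver than in any WT liver. Summed over the 10 genes, the share of all counts was 2.13%, 1.86% and 2.64% in WT replicates 1 to 3 and 4.03%, 4.61%, 4.98% and 2.98% in TET1 KO replicates 1 to 4. The mean was 2.21% ± 0.395 (SD, n = 3) in WT and 4.15% ± 0.869 (SD, n = 4) in TET1 KO livers, a ratio of 1.88. The Wilson 95% interval of a single library, which covers counting error only, was at widest 4.60% to 4.62%, so that the spread between libraries went beyond the counting. With 1 library per mouse, spread from mice and from library preparation cannot be told apart. Over all symbols starting with Mup the share was 3.02% ± 0.678 in WT and 6.23% ± 1.55 in TET1 KO livers, a ratio of 2.06. The lowest TET1 KO liver was replicate 4 and the highest WT liver was replicate 3 on both measures. Leaving out each liver in turn kept the log2 ratio of the summed share between 0.78 and 1.05, against 0.90 with all 7.

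**Figure D1:**
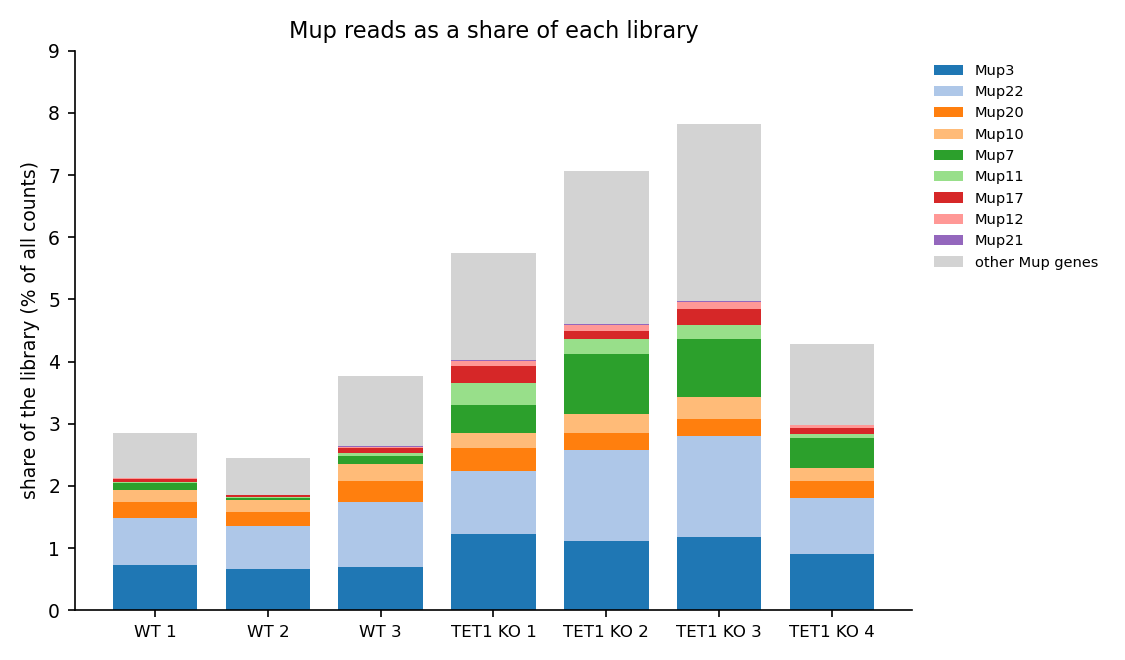
Mup reads as a percent of all counts in each of the 7 libraries, with 1 bar per liver stacked by gene, and with Mup genes other than those described in light grey (Mup5, at 0 to 5 counts, is within the grey). Full bars run from 2.46% to 3.77% in WT and from 4.28% to 7.82% in TET1 KO livers, and both the grey segment and the green Mup7 segment are wider in each TET1 KO liver than in any WT liver.

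The larger part of this difference came from central genes. Their summed share was 1.85%, 1.56% and 2.71% in the WT livers and 4.12%, 5.65%, 6.34% and 3.09% in the TET1 KO livers, a ratio of means of 2.36. Peripheral genes held 0.990%, 0.890% and 1.05% in the WT livers and 1.63%, 1.41%, 1.47% and 1.18% in the TET1 KO livers, a ratio of 1.45. Neither sum overlapped between the genotypes.

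Of the 10 genes, 9 passed the filter on low counts. All 9 had a positive log2 fold change in TET1 KO against WT livers, with a median of 1.33 against 0.01 over all tested genes. Called higher were 3 of them (Mup7, Mup11 and Mup12), where 0.874% of all tested genes were called higher. None had a negative fold change and none was called lower, by edgeR or by DESeq2, where 1.15% and 4.58% of all tested genes were called lower. For 5 of the 9 the TET1 KO livers were all above the WT livers, as for 11.7% of all tested genes, and in the other 4 the groups overlapped. For none were they all below, as for 10.8% of all tested genes. Nothing is read from these counts, since the genes were chosen with this contrast known. The number of calls depended on single livers: with WT replicate 2 or TET1 KO replicate 3 left out Mup7 and Mup11 were no longer called and Mup12 still was. Mup11 was also not called with WT replicate 1, TET1 KO replicate 1 or TET1 KO replicate 2 left out. With TET1 KO replicate 4 left out 5 were called. DESeq2 called 6 higher, beside 4.16% of the 15051 genes to which it gave an adjusted p.

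**Figure D2:**
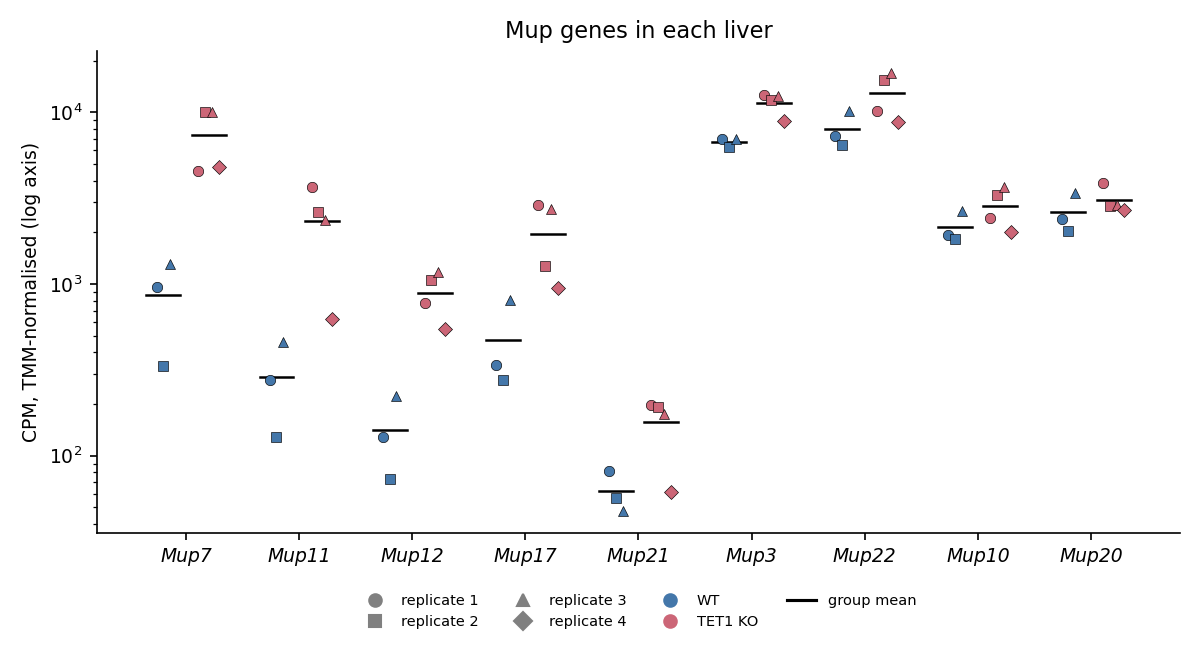
CPM of the 9 tested genes in each liver on a log axis, with marker shape for the replicate number, colour for the genotype and a line for the group mean. Groups stand furthest apart at the left, where Mup7 runs from 333 to 1304 CPM in WT and from 4536 to 10080 CPM in TET1 KO livers, and overlap for Mup21, Mup22, Mup10 and Mup20.

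Mup7, Mup11 and Mup12, all central, had the widest differences. Mup7 (ENSMUSG00000073842, 60066469 to 60070475) had 963, 333 and 1304 CPM in the WT livers and 4536, 10080, 9990 and 4779 CPM in the TET1 KO livers. Mup7 was thus 8.48-fold higher, a difference of 3.08 (SE 0.52) on the log2 scale. TET1 KO replicates 2 and 3 were about level and far above replicates 1 and 4, and WT replicate 2 was lowest. Mup11 (ENSMUSG00000073834, 60658466 to 60662432) had 278, 128 and 459 CPM in the WT livers and 3658, 2643, 2354 and 623 CPM in the TET1 KO livers. Mup11 was higher by 3.01 (SE 0.58) on the log2 scale, or 8.05-fold. Here replicate 1 was highest among the TET1 KO livers and replicate 4 lay just above the highest WT liver. Mup12 (ENSMUSG00000094793, 60737381 to 60741416) had 128, 73.2 and 222 CPM in the WT livers and 773, 1054, 1168 and 548 CPM in the TET1 KO livers. Mup12 differed by 2.65 on the log2 scale (SE 0.38), or 6.29-fold, with WT replicate 2 lowest and TET1 KO replicate 3 highest.

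Mup17 (ENSMUSG00000096688, 61591929 to 61595865), also central and the neighbour of Mup11 in promoter sequence, had 338, 277 and 806 CPM in the WT livers. In the TET1 KO livers it had 2871, 1266, 2747 and 950 CPM. The fitted difference of 2.05 on the log2 scale (SE 0.48) came with groups that did not overlap. WT replicate 3 lay close below TET1 KO replicate 4, and without it the difference was 2.65.

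Mup22 and Mup10, the most abundant central genes among the 10 in WT livers, had smaller differences. Mup22 (ENSMUSG00000110439, 60817586 to 60821597) had 7286, 6495 and 10190 CPM in the WT livers and 10210, 15460, 17040 and 8841 CPM in the TET1 KO livers. On the log2 scale the difference was 0.69 (SE 0.38), and TET1 KO replicate 4 lay below WT replicate 3. Mup10 (ENSMUSG00000078680, 60578260 to 60582276) had 1924, 1832 and 2680 CPM in the WT livers and 2432, 3322, 3684 and 2023 CPM in the TET1 KO livers. The fitted log2 fold change was 0.42 (SE 0.27), and the groups overlapped.

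The peripheral genes, whose transcripts are less like those of the rest of the family, had smaller fold changes than Mup7, Mup11 and Mup12. So did the central Mup22 (0.69 on the log2 scale) and Mup10 (0.42), and the peripheral Mup3 (0.76) and Mup21 (1.33) lay above both. Mup3 (ENSMUSG00000066154, 62083476 to 62087317) had 7011, 6295 and 6956 CPM in the WT livers and 12570, 11800, 12420 and 8869 CPM in the TET1 KO livers. The gene differed by 0.76 (SE 0.31) on the log2 scale, and the WT livers lay closer together (SD 398 CPM around 6754) than for the central genes relative to their means. Mup20, the darcin gene (ENSMUSG00000078672, 62011337 to 62054143), had 2404, 2030 and 3406 CPM in the WT livers and 3866, 2867, 2884 and 2692 CPM in the TET1 KO livers. The fitted difference, 0.24 on the log2 scale (SE 0.26), was the smallest of the 9, and WT replicate 3 lay above 3 of the 4 TET1 KO livers.

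Mup21 (ENSMUSG00000066153, 62147832 to 62150841) was the least abundant of the tested genes. It had 81.8, 56.3 and 47.7 CPM in the WT livers and 196, 192, 175 and 61.5 CPM in the TET1 KO livers, and the fitted difference was 1.33 on the log2 scale (SE 0.35). TET1 KO replicates 1 to 3 lay close together above all WT livers, while replicate 4 lay among the WT livers. Mup5 (ENSMUSG00000058523, 61831319 to 61858043) was read 1, 0 and 2 times in WT and 4, 3, 5 and 4 times in TET1 KO replicates. It did not pass the filter, and with 3 counts as the floor of a library no fold change is given.

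Levels per length could be set side by side for the 7 genes with a transcript of known length. Among WT livers the mean was 7200 CPM per kb for Mup3, 2820 for Mup20, 2310 for Mup10, 935 for Mup7, 310 for Mup11, 91.5 for Mup21 and 0.0574 for Mup5. Mup20 and Mup10 did not differ beyond the spread of the WT livers. In TET1 KO livers the order became Mup3 at 12200 CPM per kb, Mup7 at 7930, Mup20 at 3320, Mup10 at 3090, Mup11 at 2490, Mup21 at 231 and Mup5 at 0.244. Mup20, Mup10 and Mup11 did not differ beyond the spread of the TET1 KO livers, and Mup5 lay near the floor. Mup7 thus passed from the fourth place to the second.

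The make-up of the Mup reads also differed. Mup7 took 3.53%, 1.44% and 3.49% of all Mup reads in the WT livers and 7.73%, 13.5%, 12.1% and 11.3% in the TET1 KO livers. Mup12 took 0.468%, 0.316% and 0.595% in the WT livers and 1.32%, 1.41%, 1.42% and 1.30% in the TET1 KO livers. Mup11 took 0.934% ± 0.346 in WT and 3.53% ± 2.00 in TET1 KO livers. These 3 genes held a larger part of the Mup reads in every TET1 KO liver than in any WT liver. Mup22 went the other way, with 26.7%, 28.1% and 27.3% of Mup reads in the WT livers and 17.4%, 20.7%, 20.7% and 21.0% in the TET1 KO livers. Mup10 (7.38% ± 0.466 in WT and 4.47% ± 0.269 in TET1 KO livers) and Mup20 (8.90% ± 0.195 and 5.08% ± 1.63) likewise held a smaller part in every TET1 KO liver. Shares of Mup3, Mup17 and Mup21 overlapped. Together the 10 genes held 73.5% ± 3.16 of Mup reads in WT and 67.2% ± 3.21 in TET1 KO livers.

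Ratios of counts between genes of the same library, which do not depend on library scaling, were also taken. Mup7 against Mup10 was 0.500, 0.182 and 0.487 in the WT livers and 1.87, 3.04, 2.71 and 2.36 in the TET1 KO livers. Mup12 against Mup10 was 0.0664, 0.0400 and 0.0829 in the WT livers and 0.318, 0.317, 0.317 and 0.271 in the TET1 KO livers. The latter ratio was almost the same in TET1 KO replicates 1 to 3, although the levels of Mup12 there ran from 773 to 1168 CPM. Mup22 against Mup10 varied least among the ratios, with 3.71 ± 0.144 in WT and 4.46 ± 0.218 in TET1 KO livers. Mup3 against Mup20, both peripheral, was 2.92, 3.10 and 2.04 in the WT livers and 3.25, 4.11, 4.31 and 3.29 in the TET1 KO livers. Mup7 against Mup12, and Mup11 against Mup17, overlapped between the genotypes.

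**Figure D3:**
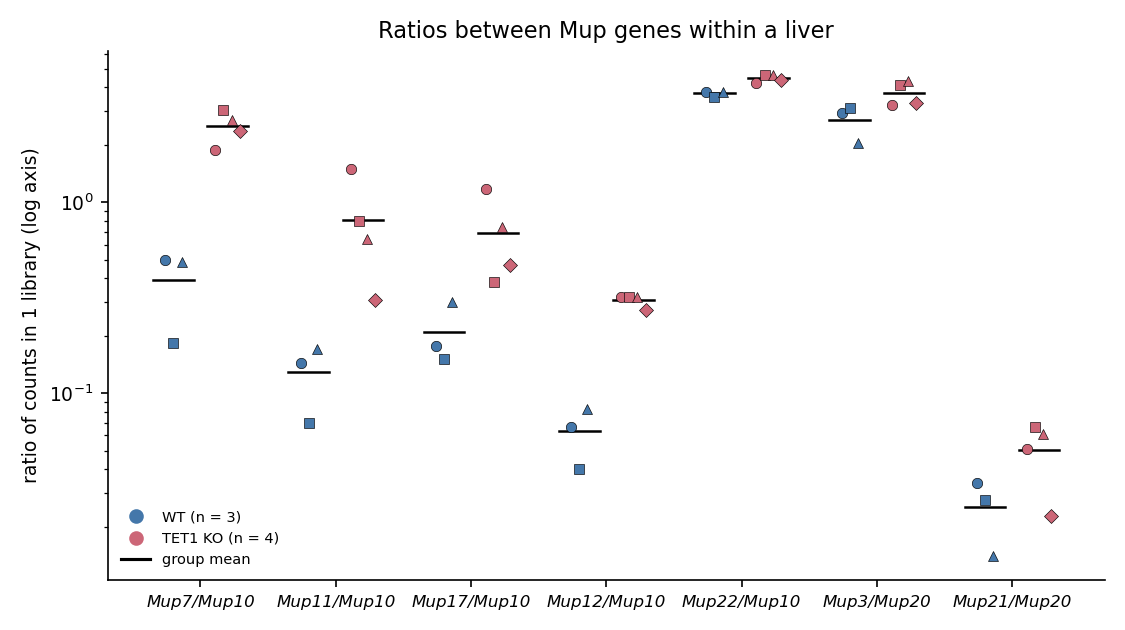
Ratios of counts of 7 pairs of Mup genes within each library on a log axis, with points for livers (marker shape for the replicate number), colour for the genotype and lines for the group means. Mup7 against Mup10 stays at or below 0.500 in WT and at or above 1.87 in TET1 KO livers, Mup22 against Mup10 stays between 3.55 and 4.65 in all livers, and only Mup21 against Mup20 overlaps.

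The lowest liver of a genotype was mostly the same from gene to gene, while the highest TET1 KO liver was not. WT replicate 2 was the lowest WT liver for 8 of the 9 tested genes, with Mup21 lowest in WT replicate 3, and WT replicate 3 was the highest for 7. TET1 KO replicate 4 was the lowest TET1 KO liver for 8 of the 9, with Mup7 lowest in replicate 1. The highest TET1 KO liver was replicate 1 for 5 genes, replicate 3 for 3 and replicate 2 for 1.

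The 12 other Mup genes were read from the same contrast and are likewise descriptions. Of these, 10 were tested and 3 were called higher, beside 0.874% of all tested genes, namely Mup15 (log2 fold change 3.17, SE 0.49), Mup1 (2.39, SE 0.42) and Mup8 (1.80, SE 0.39). Mup14 (1.74), Mup9 (1.51), Mup19 (1.37), Mup16 (1.32), Mup2 (1.23) and Mup13 (1.19) had positive log2 fold changes and were not called. Mup18 was the exception at -0.16 (SE 0.32). Over all 16 central genes the median log2 fold change was 1.62, from -0.16 to 3.17, and over the 3 tested peripheral genes it was 0.76. Mup4 and Mup6, both peripheral, lay under 1 CPM in every liver.

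**Figure D4:**
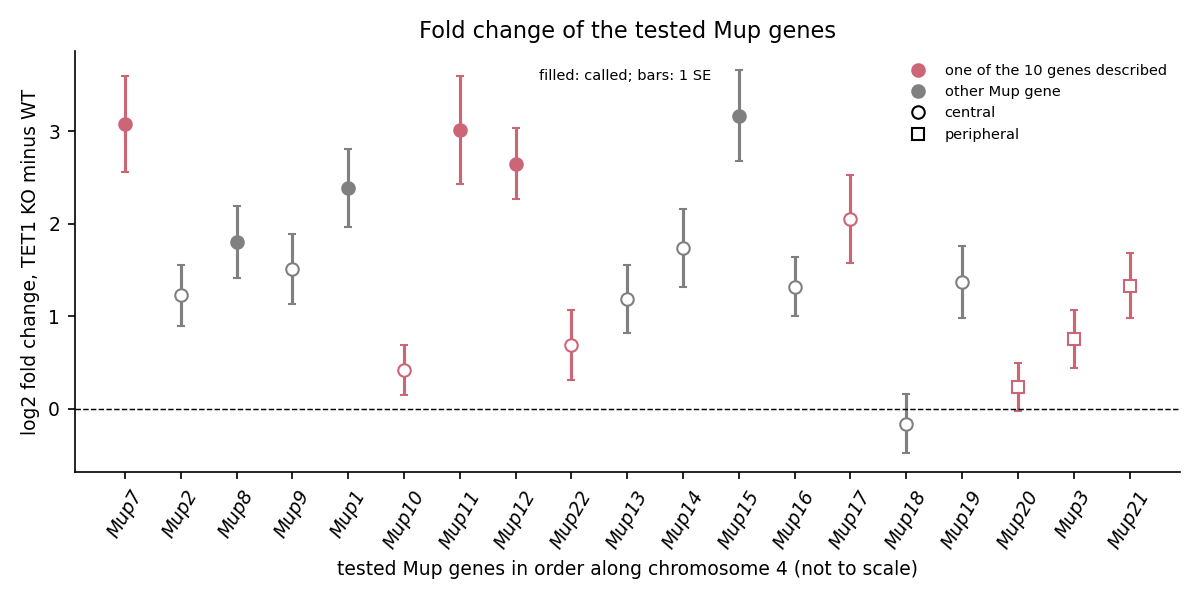
Log2 fold change (TET1 KO minus WT, y axis) of the 19 tested Mup genes in their order along chromosome 4, with bars of 1 standard error, red for the genes described and grey for other Mup genes, circles for central and squares for peripheral genes, and filled symbols for called genes. High values such as Mup7 (3.08), Mup11 (3.01) and Mup15 (3.17) stand beside low ones such as Mup10 (0.42) and Mup18 (-0.16).

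Among 27 Mup pseudogenes 8 were tested. Of these, 1 was called higher, beside 0.874% of all tested genes. This was Mup-ps17, with 1.36 ± 0.720 CPM in WT and 10.5 ± 4.70 CPM in TET1 KO livers. Mup-ps19, the most abundant, lay lower in every TET1 KO liver, as did 10.8% of all tested genes. It had 71.9 ± 15.1 CPM in WT and 48.9 ± 8.22 CPM in TET1 KO livers, and was not called. Mup-ps16 had 9.49 ± 3.18 CPM in WT and 7.59 ± 3.02 CPM in TET1 KO livers, Mup-ps12 had 1.95 ± 0.530 and 2.06 ± 0.931, and Mup-ps14 had 1.90 ± 0.952 and 1.41 ± 0.883. Mup-ps13 (log2 fold change 0.19), Mup-ps7 (0.61) and Mup-ps8 (0.67) had CPM below 2 in every liver. The median log2 fold change of the 8 was 0.14.

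How reads were shared between near-identical copies decides how far the central genes can be told apart. In GENCODE M1 transcripts, 14.6% of the 100-base windows of Mup7, 26.7% of those of Mup10 and 16.5% of those of Mup11 occurred in no other Mup transcript. For Mup3, Mup20, Mup21 and Mup5 these shares were 96.9%, 100%, 95.5% and 98.7%. At 150 bases the 12 central genes matched by identifier reached 0.900% to 36.9% and the peripheral genes 100%. The nearest transcript to Mup7 was one named Mup15 (99.2% identity, with Mup14 also at 99.2%). That transcript has another identifier than the Mup15 gene counted here. For the others the nearest was Mup9 for Mup10 (99.3%), Mup2 for Mup11 (99.4%), Mup21 for Mup3 (96.3%) and Mup4 for Mup20 (91.5%). The read length and the treatment of reads that map to several genes are not given in the sources used here, so single-gene values of the central genes are uncertain, while those of Mup3, Mup20 and Mup21 rest mostly on sequence of their own. Mup12, Mup15, Mup17 and Mup22 were not matched to a transcript by identifier, and Mup22 was not among the transcripts compared, so that the shares of windows are upper limits. With all Mup counts summed as 1 gene before the fit, the log2 fold change was 1.14.

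**Figure D5:**
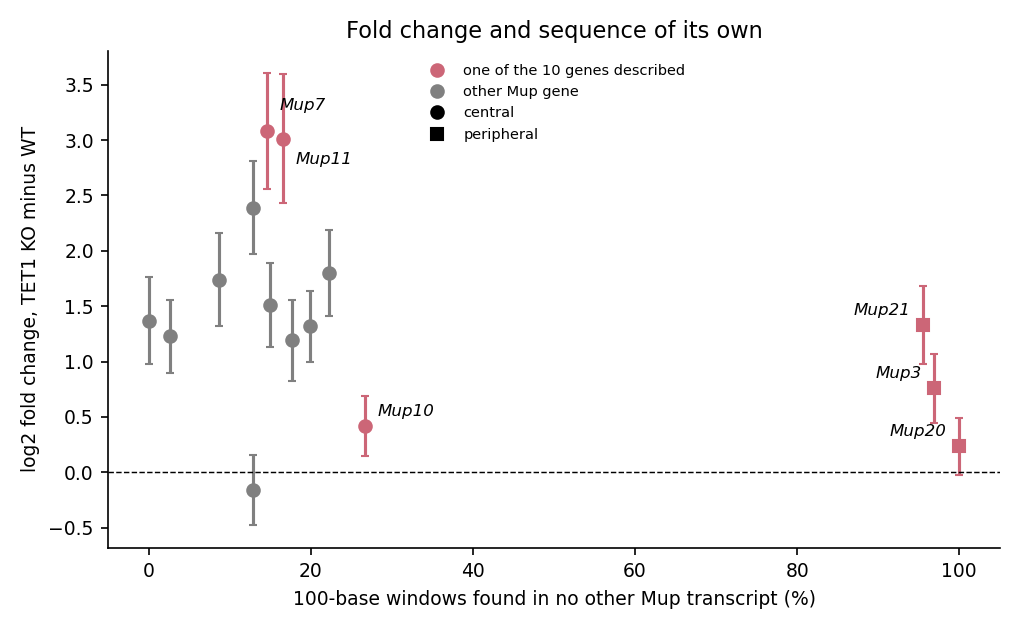
Log2 fold change (TET1 KO minus WT, y axis, bars of 1 standard error) against the percent of 100-base windows of a transcript found in no other Mup transcript (x axis) for 15 Mup genes, 6 of them among those described. Central genes lie at or below 26.7% and spread from -0.16 to 3.08, and the peripheral Mup21, Mup3 and Mup20 lie at or above 95.5% with 1.33, 0.76 and 0.24.

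Genes known to act on Mup transcription, and 5 further groups, were read from lists drawn up by function or position. The lists drawn up by function were chosen with earlier results of these data known, so their counts are descriptions. Of the 23 regulators reported, all tested, edgeR called 0, where it called 2.02% of all tested genes in either direction. At an unadjusted p under 0.05 were 6 of the 23, beside 26.3% of all tested genes. DESeq2 called 3, beside 8.74% of the genes it tested, and nothing particular to the list is read from this. Log2 fold changes were positive for 16 and negative for 7, from -0.96 to 0.96, with a median of 0.07. Without TET1 KO replicate 4, 1 was called by edgeR. Zbtb20, a liver repressor, had a log2 fold change of 0.86 (SE 0.22, edgeR adjusted p = 0.0645), with 219 to 282 CPM in WT and 325 to 637 CPM in TET1 KO livers. Hnf4a (0.12), Cebpa (0.28) and Rxra (0.04), which are liver transcription factors, were not called.

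Of 14 tested genes of growth hormone signalling, 0 were called by edgeR or by DESeq2, beside 2.02% and 8.74% of all tested genes, and 0 had an unadjusted p under 0.05, beside 26.3%. The receptor gene Ghr had 525 ± 55.0 CPM in WT and 458 ± 56.7 CPM in TET1 KO livers. Igf1 (523 ± 65.6 and 550 ± 68.7 CPM), Igfals (89.4 ± 14.95 and 102 ± 9.93 CPM), both made in liver under growth hormone, and the adaptor Shc1 (42.4 ± 0.957 and 43.6 ± 5.89 CPM) overlapped between the genotypes as well. At this depth a difference in these genes was not detected, which does not show that there was none.

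Genes with a male bias in liver included called genes. Of 16 tested, 5 were called higher and 0 lower, beside 0.874% and 1.15% of all tested genes. At an unadjusted p under 0.05 by edgeR were 10 of the 16, beside 26.3% of all tested genes. This list was chosen with earlier results of these data known, so nothing is read from its counts. Log2 fold changes were positive for 11 and negative for 5, with a median of 0.88. Slco1a1, an organic anion uptake carrier, had 45.1, 64.4 and 71.9 CPM in the WT livers and 272, 194, 202 and 140 CPM in the TET1 KO livers (log2 fold change 1.74, SE 0.23, edgeR adjusted p = 0.00736). The others were Selenbp2 (3.16, edgeR adjusted p = 0.0264), the oxysterol hydroxylase gene Cyp7b1 (1.20, adjusted p = 0.0270), Cyp4a12a (1.67, adjusted p = 0.0198) and Cyp4a12b (1.66, adjusted p = 0.0207). The last 2 are close copies that may share reads. Cyp2d9 (0.24), Serpina1e (2.02), Gstp1 (0.51) and Lifr (0.74, adjusted p = 0.0510 by edgeR) were not called, and Serpina1e ran from 197 to 1080 CPM among the WT livers alone. Elovl3, a fatty acid elongase gene named after its values were seen, was lower in every TET1 KO liver without being called (-0.91, SE 0.31, edgeR adjusted p = 0.104). Of 13 female-biased genes tested, from a list chosen in the same way, 8 had an unadjusted p under 0.05 by edgeR, beside 26.3% of all tested genes. Of the 13, 0 were called higher and 2 lower, beside 0.874% and 1.15% of all tested genes, with a median of -1.13. These were Cyp2a22 (-3.59, edgeR adjusted p = 0.0213) and Acot3 (-2.78, adjusted p = 0.0382), and both had less than 12 CPM in WT replicate 3 against 28.6 or more in WT replicates 1 and 2. Cyp2b9 (-1.13), Cyp2b13 (-1.23) and Cyp4a10 (-0.15) were not called. Without WT replicate 2, 1 male-biased and 0 female-biased genes were called, and without TET1 KO replicate 2 the counts were the same.

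Of 10 tested lipocalins outside the Mup family, 0 were called by edgeR or DESeq2, and 0 had an unadjusted p under 0.05, beside the same shares of all tested genes. Rbp4, the carrier of retinol, had a log2 fold change of 0.29, Ambp, which codes for alpha-1-microglobulin, -0.07, the acute phase gene Orm1 -0.30 and the complement gene C8g 0.30.

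Genes next to the Mup cluster were taken within 1 Mb of any of the 10 genes. Of 44, 36 were found in the tables and 20 were tested. Here edgeR called 0, beside 2.02% of all tested genes, with 4 at an unadjusted p under 0.05, beside 26.3%, and DESeq2 called 2, beside 8.74%. Hsdl2 had a log2 fold change of -0.72 (SE 0.17, edgeR adjusted p = 0.0512) with 60.3 to 88.1 CPM in WT and 34.5 to 49.1 CPM in TET1 KO livers. Ambp (-0.07), Alad (0.51), which makes a haem precursor, and Slc31a1 (-0.22), a copper carrier, were not called. Gm12909, a non-coding RNA 966 bases from Mup3, had 22.2, 11.8 and 12.0 CPM in the WT livers and 33.9, 25.5, 28.1 and 20.9 CPM in the TET1 KO livers (log2 fold change 0.82, edgeR adjusted p = 0.0840), and was named after its values were seen.

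For some lists of markers of other cells the summed level did not overlap between the genotypes. The summed level of 5 cholangiocyte markers was 29.7 to 37.8 CPM in WT and 46.1 to 67.9 CPM in TET1 KO livers, with 0 of 5 called by edgeR, beside 2.02% of all tested genes. Most of this sum was Spp1, at 19.7 to 29.1 CPM in WT and 30.7 to 43.6 CPM in TET1 KO livers, while Krt19 and Krt7 overlapped. The summed level of 6 endothelial markers was 142 to 145 CPM in WT and 117 to 141 CPM in TET1 KO livers, with 0 of 6 called, beside the same share. Each of these 6 markers overlapped between the genotypes. Of 4 pancreatic acinar markers only Cela1 was tested, and it was called higher, beside 0.874% of all tested genes. Cela1 had 13.4 to 21.4 CPM in WT and 36.6 to 80.7 CPM in TET1 KO livers, while Prss2 was at 0 in all livers and Cpa1 and Pnlip lay below 1 CPM. Kupffer cell, stellate cell, T and B cell and adipocyte markers overlapped between the genotypes. The 4 adipocyte markers summed to 10.8 CPM in TET1 KO replicate 2 and to at most 1.24 CPM in each of the other livers. The part of these markers in the Mup values was not tested.

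The genes outside the family whose log2 CPM followed the summed level of the 10 genes most closely over the 7 livers were F11 (Pearson r = 0.994), Dhtkd1 (0.989), Serpina1a (0.984), U2af1 (0.981) and Rtp3 (0.979). F11 codes for a coagulation factor and Serpina1a for a protease inhibitor of plasma. After the genotype means were subtracted, the closest were Itga5 (0.988), F11 (0.987), Nek6 (0.981), Mdm2 (0.976) and Dhtkd1 (0.976). These correlations are descriptions over 7 livers, in which genotype and library depth differ between the points and are common to both genes of a pair.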

How the data were processed

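RNA-seq libraries from the livers of 3 WT and 4 TET1 KO mice were used, 1 per mouse, with groups from the labels. The authors deposited raw read counts per Ensembl gene for each mouse; the submitters' processing notes name Trimmomatic 0.36, GSNAP, featureCounts 1.5.3 and GRCm38. The annotation release, strand setting and treatment of multi-mapped reads are not given in the sources used here, although the labels describe a strand-specific kit, so paralogs and overlapping genes remain uncertain.

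Tables were joined by Ensembl identifier. In R 4.3.3, edgeR 4.0.16 (TMM, filterByExpr, glmQLFit, glmQLFTest) compared the genotypes without covariates over 14754 genes. Calls needed an adjusted p (Benjamini-Hochberg) under 0.05; the fold-change limits the study used for its gene lists were not applied. Standard errors are the log2 fold change over the square root of F, and a prior count of 2 entered log2 CPM. DESeq2 1.42.0, RLE size factors, library size only, no filter, library size without Mup counts, the replicate number as a block and leaving out each mouse were alternatives. The script was tested on simulated data. Libraries of a genotype differed beyond sampling noise (lowest chi-square per degree of freedom 26.5).

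Coordinates and promoters are from RefSeq (GRCm38.p6), matched by symbol; transcript likeness used GENCODE M1. Named are the 10 genes, other Mup genes with at least 10 counts in a library, in each list the called genes and the 4 with the highest mean CPM, and the 5 genes closest in pattern; exceptions are stated. Of the list of regulators, 1 gene is not reported here and was left out of the list's counts. The genes and lists were chosen with earlier results of these data known. Figures were drawn with matplotlib 3.10.9.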

Additional observations from a re-analysis of the deposited data

Results flagged for a closer look

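In 3 Mup genes 1 of the 4 TET1 KO livers stood far from the others, with a gap to its nearest neighbour, relative to the whole range of the 4, above the limit of Dixon's test at the 95% level for 4 samples. For Mup20, TET1 KO replicate 1 was at 3870 CPM against 2690 to 2880 in the others, a gap of 0.836 of the range. For Mup21, TET1 KO replicate 4 was at 61.5 CPM against 175 to 196, a gap of 0.847 of the range. For Mup6, which lay near the floor, replicate 1 was at 0.938 CPM against 0.282 to 0.358, a gap of 0.884 of the range. Among 30 groups examined, chance alone gives about 1.5 such flags.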

How the results depend on the processing

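The log2 fold changes of the 9 tested genes moved by less than the pooled SD between replicates under each of 13 alternatives, 117 values in all, and none reversed. The count of genes called higher was 3. It was 6 with DESeq2, 5 without the filter on low counts, 5 with the replicate block and 1 to 5 when 1 liver was left out. Replicate numbers did not pair the samples (correlations of deviations 0.209, -0.123 and -0.0964 for numbers 1 to 3), so the block is no paired test. For other Mup genes, examined after the data were seen, the count of 3 became 9 with DESeq2, 8 without the filter, 9 with the block and 1 to 9 with 1 liver left out. Over all tested genes, 169 lower and 129 higher calls became 689 and 626 with DESeq2, 347 and 245 without the filter and 656 and 670 with the block. Library size only gave 312 lower, and leaving out 1 liver gave 22 to 464 lower and 16 to 427 higher. Regulators called were 0, and 3 with DESeq2, 2 without the filter, 2 with the block and 0 to 1 with 1 liver left out. Male-biased genes called were 5, and 8 with DESeq2, 9 with the block and 1 to 8 with 1 liver left out. Female-biased genes called were 2, and 4 without the filter and 0 to 4 with 1 liver left out. Genes next to the cluster called were 0, and 2 with DESeq2, 1 with library size only, 1 without the filter, 2 with the block and 0 to 1 with 1 liver left out. The cause of these changes was not tested. Depth did not limit the abundant Mup genes, but Mup4, Mup5 and Mup6 lay near the floor of 3 counts.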
